A study of Mus musculus with 4 samples.

Results

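Dentate granule cells are the principal neurons of the dentate gyrus, the first relay of the hippocampal circuit, and they send mossy fibre axons to CA3 pyramidal cells. They are known to withstand transient ischemia better than CA1 pyramidal cells, and new ones are added in adulthood. The genes described here are 9 that are enriched in these cells: Prox1, Dsp, C1ql2, C1ql3, Calb1, Tdo2, Lct, Trpc6 and Dock10. They were taken by gene symbol from tables of 22609 genes, and all 9 were among the 14978 genes with enough reads to be tested. The set was chosen by cell type, with earlier results of these data known, and not by a threshold on a value.

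The hippocampus of ovariectomized C57BL/6 mice was profiled by RNA sequencing in 2 PELP1 FBKO libraries and 2 FLOXED libraries. PELP1 is a co-regulator of estrogen receptors, and FLOXED mice carry the floxed genotype against which the knockout was set. Mice of both genotypes carried estradiol (E2) mini pumps and underwent GCI, the global cerebral ischemia model in which the blood supply of the brain is briefly interrupted, followed by 24 h of reperfusion. The Cre driver of the knockout, the animals' ages and the number of animals behind a library are not given in the sources used here. With no library free of ischemia or of estradiol, a difference that existed before either cannot be told apart from one that followed them.

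Reads assigned to genes ranged from 19882952 to 22447658 in PELP1 FBKO libraries and from 17524594 to 21921862 in FLOXED libraries. Pelp1, the targeted gene, stood at 18.0 and 17.3 CPM (counts scaled to library size by TMM) in PELP1 FBKO, against 26.7 and 26.3 CPM in FLOXED. Its log2 fold change was -0.59 (SE 0.149, edgeR quasi-likelihood, adjusted p = 0.130). All 7 CA1 markers and all 9 CA3 and CA2 markers looked for had enough reads to be tested. This does not check the tissue label, as 6 of 7 thalamic and habenular genes and 7 of 7 meningeal genes also had. FLOXED 1 stood apart from the other libraries. Alignments that were not unique made up 38.5% and 41.5% of all records in the PELP1 FBKO libraries, against 47.7% in FLOXED 1 and 40.4% in FLOXED 2. Long transcripts were low in FLOXED 1: the longest 20% of genes, from 5302 bases, had a median of 0.10 and 0.01 in PELP1 FBKO, against -0.18 in FLOXED 1 and 0.07 in FLOXED 2, as log2 CPM centred on each gene's mean. The values of Prox1, Dsp, Dock10 and Lct, which exceed that length, are therefore also given with offsets for length and GC content. Values of genes outside the 9 are given without such offsets.

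The 9 marker genes did not move as a block. Prox1, Dsp, Tdo2 and Dock10 were higher in PELP1 FBKO than in FLOXED with no overlap between the libraries, by between 1.40-fold and 1.93-fold, and Trpc6 was lower with no overlap. C1ql2, C1ql3, Calb1 and Lct overlapped between the genotypes. Among all tested genes, 25.4% were higher without overlap and 23% lower without overlap. By edgeR's quasi-likelihood test with Benjamini-Hochberg adjustment over all tested genes, 0 of 9 passed the threshold of 0.05, as did 0% of all tested genes. At an unadjusted p under 0.05, 4 of the 9 were higher and 0 lower, where 10.1% and 5.55% of all tested genes were. DESeq2 called 2 of the 9 higher, Prox1 and Dsp, and 0 lower, where it called 2.2% of its tested genes higher and 0.895% lower. The same 2 were called by edgeR's exact test (3.75% of genes higher), without a count filter (1.51%) and with the replicate number as a block (2.58%). Dsp alone was called with offsets for length and GC content (1.84%), and Prox1, Dsp and Tdo2 were called without PELP1 FBKO 2 (1.79%). Because whole hippocampus was sequenced, a change in the number of granule cells and a change in RNA per cell cannot be told apart.

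**Figure D1:**
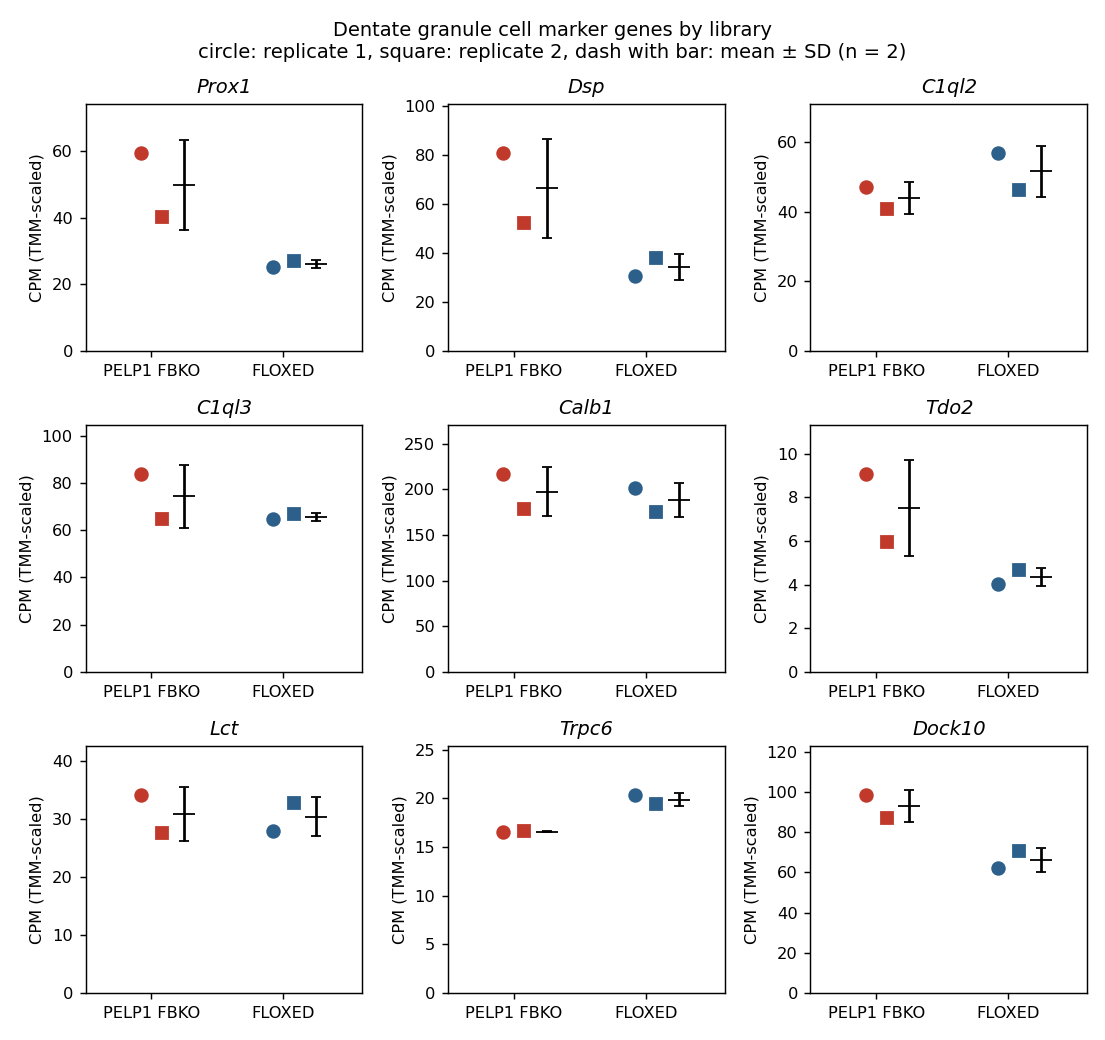
TMM-scaled CPM of the 9 marker genes (vertical axes, from 0) in each library, with PELP1 FBKO in red left of FLOXED in blue and the mean ± SD (n = 2) beside each pair. Prox1, Dsp, Tdo2 and Dock10 lie higher in both PELP1 FBKO libraries, Trpc6 lies lower, and the other 4 genes overlap.

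Prox1 encodes a homeodomain transcription factor that specifies and maintains granule cell identity, and it is also found in some interneurons. It was counted with 1308 and 822 reads in PELP1 FBKO 1 and 2, against 443 and 586 reads in FLOXED 1 and 2. At the scaled level these were 59.3 and 40.3 CPM in PELP1 FBKO and 25.3 and 27.0 CPM in FLOXED. The FLOXED libraries were close to each other, and the PELP1 FBKO libraries were both above them but differed among themselves, PELP1 FBKO 1 being the higher. The log2 fold change was 0.93 (SE 0.196, 95% interval 0.48 to 1.38, edgeR adjusted p = 0.0935). Prox1 ranked 236 among 14978 genes by p. Over the alternatives that kept every library, its adjusted p ranged from 0.00219 (edgeR's exact test) to 0.105 (limma-voom). DESeq2 gave an adjusted p of 0.00294. Without PELP1 FBKO 1 the log2 fold change was 0.60, and without PELP1 FBKO 2 it was 1.18. With offsets for length and GC content it was 0.78 (edgeR adjusted p = 0.0543).

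Dsp encodes desmoplakin, which anchors intermediate filaments to desmosomes in epithelia and heart and serves as a granule cell marker in the hippocampus. It stood at 80.8 and 52.1 CPM in PELP1 FBKO, against 30.7 and 38.0 CPM in FLOXED. PELP1 FBKO 1 was again the highest library and FLOXED 1 the lowest. The log2 fold change was 0.95 (SE 0.218, 95% interval 0.45 to 1.46, edgeR adjusted p = 0.108), and DESeq2 gave an adjusted p of 0.00321. The log2 fold change was 0.58 without PELP1 FBKO 1 and 1.24 without PELP1 FBKO 2. With offsets for length and GC content Dsp passed the threshold, at a log2 fold change of 0.77 (edgeR adjusted p = 0.0484). Over the alternatives that kept every library, its adjusted p ranged from 0.00321 (DESeq2) to 0.123 (limma-voom).

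Tdo2 encodes tryptophan 2,3-dioxygenase, which opens the kynurenine pathway of tryptophan breakdown and marks mature granule cells. It was the least abundant of the 9, with 200 and 122 reads in PELP1 FBKO against 71 and 101 reads in FLOXED. Its level was 9.07 and 5.98 CPM in PELP1 FBKO and 4.05 and 4.66 CPM in FLOXED. The libraries stood in the same order as for Dsp, with PELP1 FBKO 1 highest and FLOXED 1 lowest. The log2 fold change was 0.79 (SE 0.265, 95% interval 0.18 to 1.40, edgeR adjusted p = 0.216). It was 0.43 without PELP1 FBKO 1 and 1.06 without PELP1 FBKO 2. With offsets for length and GC content it was 0.75 (edgeR adjusted p = 0.158).

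Prox1, Dsp and Tdo2 kept nearly fixed proportions to each other across the 4 libraries. The reads of Prox1 per read of Dsp were 0.734 and 0.773 in PELP1 FBKO, against 0.823 and 0.711 in FLOXED. Prox1 per Tdo2 read lay at 6.54 and 6.74 in PELP1 FBKO, against 6.24 and 5.80 in FLOXED. Of the 36 pairs among the 9 genes, the 3 pairs made of these genes had the smallest spread of the ratio over the libraries, 1.16-fold, 1.16-fold and 1.18-fold between the lowest and the highest library. Such a ratio within a library does not depend on library size. Over the same 4 libraries, Dsp was the second and Tdo2 the third most like Prox1 among 11726 genes with a mean of at least 5 CPM. Likeness was the Euclidean distance between log2 CPM values centred on each gene's mean, 0.160 for Dsp and 0.170 for Tdo2. The other genes among the nearest 5 were Tspan18, a tetraspanin gene, at a distance of 0.124, the arrestin domain gene Arrdc2 at 0.184 and AI646023 at 0.196. Tspan18 stood at 56.5 and 42.2 CPM in PELP1 FBKO and at 26.6 and 26.4 CPM in FLOXED. Dock10 came at rank 251, C1ql3 at 1530, Calb1 at 3250, Lct at 3512, C1ql2 at 8784 and Trpc6 at 9414 of the 11726. These are descriptions over 4 libraries and carry no test.

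**Figure D2:**
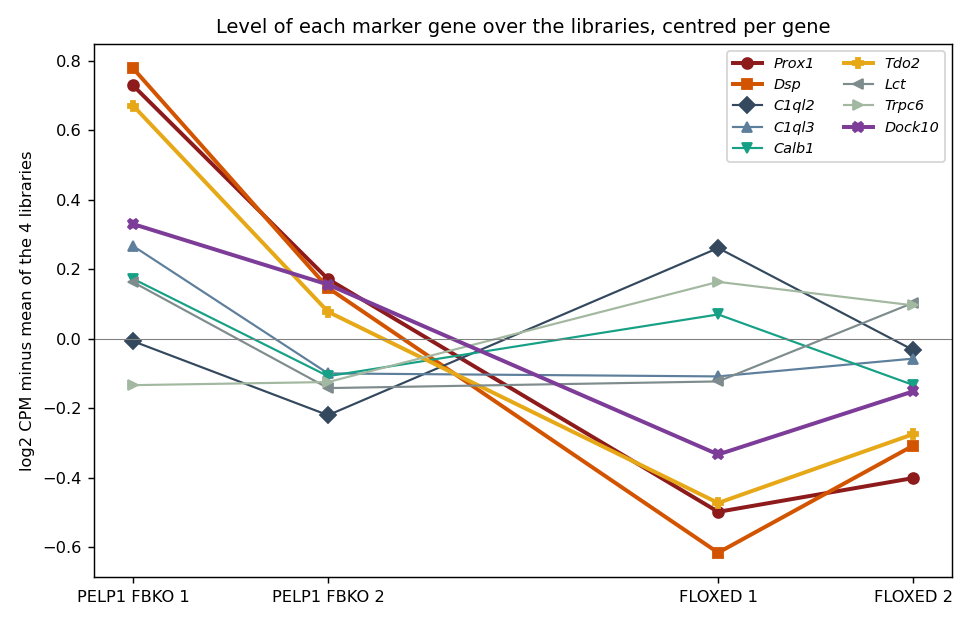
Level of each of the 9 marker genes as log2 CPM minus its mean over the 4 libraries (vertical axis), with PELP1 FBKO libraries left of FLOXED libraries and lines that only join the points of a gene. Prox1, Dsp and Tdo2 run together, highest in PELP1 FBKO 1 and low in both FLOXED libraries, while Dock10 follows with a smaller range and the other 5 genes do not share this order.

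The promoters of Prox1, Dsp and Tdo2 are shown because these 3 genes moved together. Each runs 5′ to 3′ over 300 bases, from 250 before to 50 after the first base of the gene's most upstream start, from RefSeq on GRCm38.p6. The submitters' own alignments used mm9, so these coordinates do not apply to their files. Prox1 lies at chr1:190170778-190171077 (minus strand), Dsp at chr13:38151044-38151343 (plus strand) and Tdo2 at chr3:81975679-81975978 (minus strand). Capitals mark matches on either strand to CAGATG (the E-box form bound by NeuroD-type factors), CAGCTG (another E-box), TGACGTCA (the cAMP response element), CCAAT (the CCAAT box) and TATAAA (the TATA box).
Prox1: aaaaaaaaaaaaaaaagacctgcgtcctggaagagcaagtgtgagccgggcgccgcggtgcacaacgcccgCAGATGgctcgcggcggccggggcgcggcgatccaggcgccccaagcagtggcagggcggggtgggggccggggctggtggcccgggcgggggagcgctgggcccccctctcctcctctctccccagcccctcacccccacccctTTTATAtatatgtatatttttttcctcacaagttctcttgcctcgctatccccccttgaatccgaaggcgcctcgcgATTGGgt
Dsp: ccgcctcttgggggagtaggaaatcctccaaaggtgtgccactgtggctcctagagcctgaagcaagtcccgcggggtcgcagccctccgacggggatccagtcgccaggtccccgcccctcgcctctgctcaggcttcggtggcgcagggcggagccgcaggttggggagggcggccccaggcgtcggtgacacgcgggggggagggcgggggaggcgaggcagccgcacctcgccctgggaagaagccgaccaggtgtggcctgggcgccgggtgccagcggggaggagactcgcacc
Tdo2: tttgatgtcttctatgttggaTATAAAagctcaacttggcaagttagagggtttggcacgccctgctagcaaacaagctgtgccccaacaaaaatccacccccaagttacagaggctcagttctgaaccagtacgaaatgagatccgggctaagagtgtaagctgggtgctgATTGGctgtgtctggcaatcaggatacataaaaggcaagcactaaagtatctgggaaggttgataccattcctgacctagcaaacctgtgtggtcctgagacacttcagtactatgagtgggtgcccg

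The promoters differ in composition, although the 3 genes ran together over the libraries. GC content was 64.3% for Prox1, 73% for Dsp and 47.7% for Tdo2, beside a median of 52.7% over 27025 RefSeq promoter windows of the same length. The ratio of observed to expected CpG was 0.807 for Prox1, 0.686 for Dsp and 0.236 for Tdo2, beside a median of 0.389. None of the 5 motifs was found in all 3 promoters. The Prox1 window held the CAGATG E-box, the CCAAT box and the TATA box, the Tdo2 window held the CCAAT box and the TATA box, and the Dsp window held none of the 5. Among all windows, 17.3% held CAGATG, 16.1% CAGCTG, 1.85% TGACGTCA, 38% CCAAT and 14.2% TATAAA. Of the 9 genes 8 had a window, Calb1 being without one, and CAGATG was also found in that of Dock10. A match of letters is a description and not a site.

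Dock10 encodes a guanine nucleotide exchange factor, which activates small GTPases that shape dendritic spines. It stood at 98.6 and 87.4 CPM in PELP1 FBKO, against 62.2 and 70.6 CPM in FLOXED. Libraries of a genotype were closer to each other than to the other genotype. The log2 fold change was 0.49 (SE 0.137, 95% interval 0.17 to 0.80, edgeR adjusted p = 0.158), and it was 0.35 with offsets for length and GC content (edgeR adjusted p = 0.118). Of 4 relatives and partners, 0 passed the edgeR threshold. Dock11, another exchange factor of the family, had a log2 fold change of 0.44 (edgeR adjusted p = 0.266), and Dock9 had 0.14 (edgeR adjusted p = 0.772). The GTPase genes Cdc42 and Rac1 had -0.06 and -0.02 (edgeR adjusted p = 0.874 and 0.961).

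C1ql2 and C1ql3 encode C1q-like proteins that granule cells secrete at mossy fibre synapses, where in mice they bind kainate receptors on CA3 pyramidal cells. C1ql2 stood at 47.2 and 40.7 CPM in PELP1 FBKO, against 56.9 and 46.4 CPM in FLOXED, a log2 fold change of -0.23 (SE 0.156, 95% interval -0.59 to 0.13, edgeR adjusted p = 0.514). It was -0.08 without FLOXED 1 and -0.38 without FLOXED 2. C1ql3 stood at 83.8 and 64.9 CPM in PELP1 FBKO, against 64.6 and 66.9 CPM in FLOXED, a log2 fold change of 0.18 (SE 0.153, 95% interval -0.17 to 0.53, edgeR adjusted p = 0.610), and -0.036 without PELP1 FBKO 1. For both genes the genotypes overlapped, and for C1ql3 only PELP1 FBKO 1 was apart from the rest. The C1ql3 span overlaps that of Pter in RefSeq, and Pter was at 7.07 and 6.86 CPM in PELP1 FBKO against 5.19 and 5.03 CPM in FLOXED. Partners of these proteins also overlapped between the genotypes. Grik2 and Grik4, kainate receptor subunits, had log2 fold changes of 0.05 and 0.15 (edgeR adjusted p = 0.889 and 0.735). Bai3, an adhesion receptor that binds C1q-like proteins, had 0.12 (edgeR adjusted p = 0.706), Nrxn3, a presynaptic neurexin, had 0.18 (edgeR adjusted p = 0.649), and the family member C1ql1 had -0.06 (edgeR adjusted p = 0.906).

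Calb1 encodes calbindin, a calcium buffer that fills mature granule cells and is also made by superficial CA1 pyramidal cells and some interneurons. It was the most abundant of the 9 genes, with between 3538 and 4779 reads per library. Its level was 217 and 178 CPM in PELP1 FBKO, against 202 and 175 CPM in FLOXED. The 2 genotypes overlapped almost fully, with a log2 fold change of 0.07 (SE 0.153, 95% interval -0.28 to 0.42, edgeR adjusted p = 0.873). Lct, the lactase gene, which is known as a granule cell marker in the mouse brain, stood at 34.1 and 27.6 CPM in PELP1 FBKO and at 27.9 and 32.7 CPM in FLOXED. Its log2 fold change was 0.02 (SE 0.168, 95% interval -0.36 to 0.41, edgeR adjusted p = 0.963), and -0.11 with offsets for length and GC content (edgeR adjusted p = 0.671). These intervals do not reach the 0.93 measured for Prox1, but they do not show that the levels are equal.

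Trpc6 encodes a cation channel of the canonical TRP family that is enriched in the dentate gyrus. It was the only member lower without overlap, at 16.5 and 16.7 CPM in PELP1 FBKO against 20.4 and 19.4 CPM in FLOXED. Both pairs of libraries were tight. The log2 fold change was -0.26 (SE 0.154, 95% interval -0.62 to 0.10, edgeR adjusted p = 0.458), and without any one library it lay between -0.31 and -0.23. In RefSeq the span of Trpc6 overlaps a long noncoding RNA gene. Among other genes of the family, Trpc7 had a log2 fold change of 0.55 (edgeR adjusted p = 0.326), higher without overlap. Trpc1, Trpc4 and Trpc5 overlapped between the genotypes and lay between -0.05 and 0.02.

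**Figure D3:**
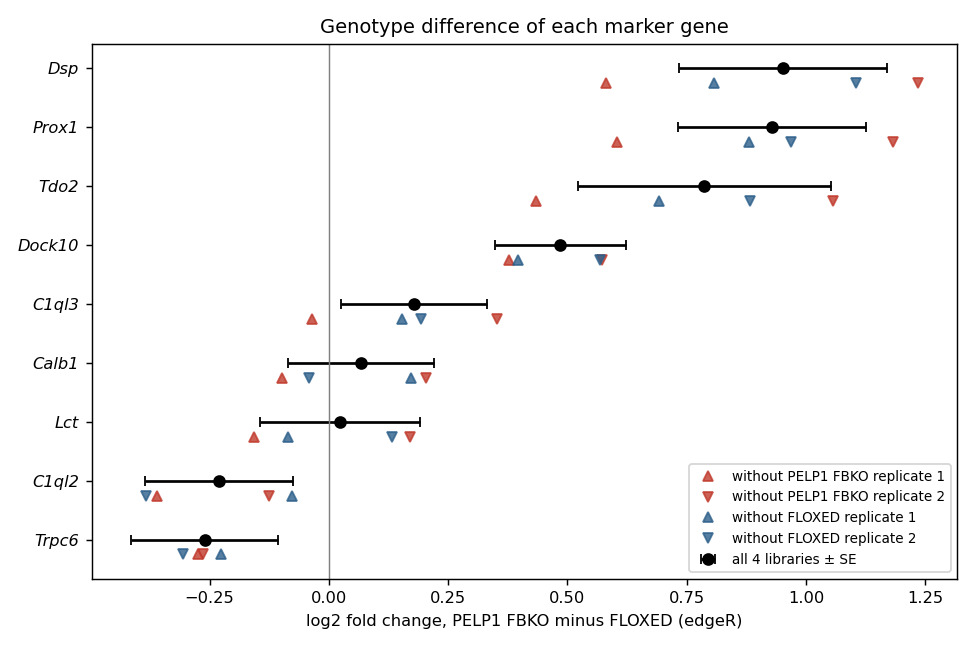
Log2 fold change (horizontal axis, PELP1 FBKO minus FLOXED) of each marker gene from all 4 libraries with its SE (black), and with each library left out in turn (triangles). Dsp, Prox1, Tdo2 and Dock10 stay above 0 and C1ql2 and Trpc6 below 0 whichever library is left out, and the first 3 are smallest without PELP1 FBKO 1.

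Within each library, Prox1 was set against the other members. It was higher without overlap in PELP1 FBKO relative to 7 of the 8 other genes, Dsp being the exception. These ratios all share Prox1, which did not overlap itself, so they are not separate results. Their share over all tested genes was not computed. For Tdo2 the margin was small, at 6.54 and 6.74 in PELP1 FBKO against 6.24 and 5.80 in FLOXED. Prox1 reads per C1ql2 read were 1.26 and 0.989 in PELP1 FBKO, against 0.444 and 0.583 in FLOXED. Per read of Calb1 they were 0.274 and 0.226 in PELP1 FBKO, against 0.125 and 0.154 in FLOXED. Relative to Trpc6 they were 3.58 and 2.42 in PELP1 FBKO, against 1.24 and 1.39 in FLOXED. The difference in the mean log2 ratio was 1.13 for C1ql2, 0.84 for Calb1, 1.16 for Trpc6, 0.88 for Lct, 0.74 for C1ql3, 0.42 for Dock10 and 0.14 for Tdo2. Since only 2 libraries stood on each side, an exact permutation test could not have reached the threshold and none was run.

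Per kilobase of transcript, Calb1 led in both genotypes and Tdo2 was last. The length was that of the longest GENCODE vM21 transcript of each gene. Calb1 averaged 46.8 CPM per kb in PELP1 FBKO and 44.7 CPM per kb in FLOXED, C1ql3 29.3 and 25.9, C1ql2 22.0 and 25.8, and Dock10 12.9 and 9.23. In PELP1 FBKO the order went on with Dsp (6.93 CPM per kb), Prox1 (6.29), Trpc6 (5.09), Lct (4.99) and Tdo2 (2.19). In FLOXED it was Trpc6 (6.10 CPM per kb), Lct (4.91), Dsp (3.58), Prox1 (3.30) and Tdo2 (1.27). Dsp and Prox1 ranked 5 and 6 in PELP1 FBKO, and 7 and 8 in FLOXED. Neighbours whose libraries overlapped were Dsp and Prox1, Prox1 and Trpc6, and Trpc6 and Lct in PELP1 FBKO, and C1ql3 and C1ql2, and Dsp and Prox1, in FLOXED.

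**Figure D4:**
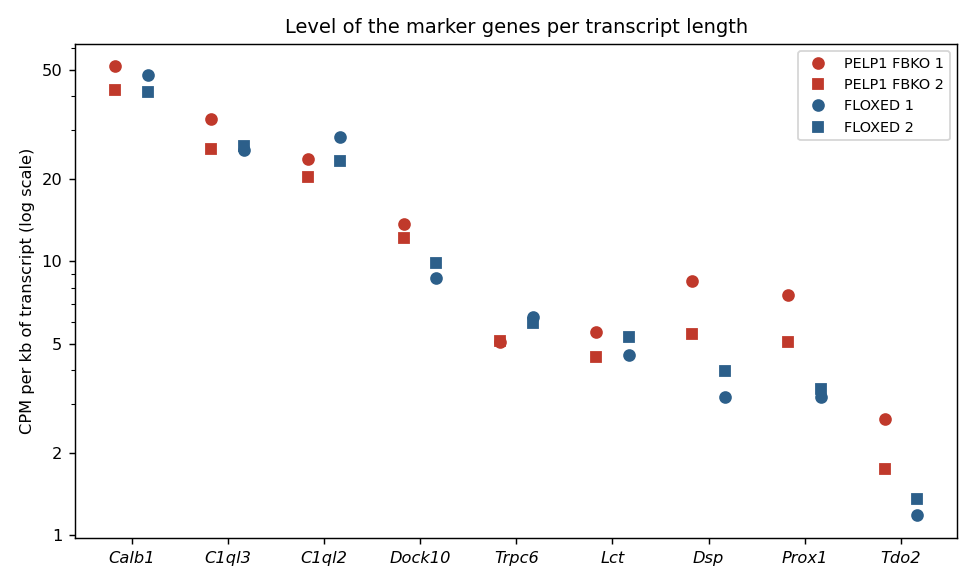
Level of each marker gene in CPM per kb of transcript (vertical axis, log scale), with the PELP1 FBKO libraries left of the FLOXED libraries for each gene and genes ordered by their FLOXED mean. Calb1, C1ql3 and C1ql2 lie between 20.4 and 51.3 CPM per kb, and Dsp and Prox1 pass Trpc6 and Lct in the PELP1 FBKO means.

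Other genes known from the dentate gyrus went both ways. Of a list of 16, the edgeR threshold was passed by 0. At an unadjusted edgeR p under 0.05 there were 4 higher and 3 lower, where the 9 had 4 higher and 0 lower. Among all tested genes, 10.1% were higher and 5.55% lower at that threshold. The median log2 fold change was 0.21 over the 16 and 0.18 over the 9 marker genes, beside 0.00 over all tested genes, and 7 of the 9 were above 0, as were 50% of all tested genes. The value for the 9 rested on PELP1 FBKO 1: without it their median was -0.036 and 4 were above 0. With offsets for length and GC content 5 were above 0, at a median of 0.16. Plk5, a polo-like kinase gene, stood at 7.89 and 7.40 CPM in PELP1 FBKO against 13.6 and 12.2 CPM in FLOXED, a log2 fold change of -0.75 (SE 0.183, edgeR adjusted p = 0.120). Sema5a, a semaphorin that acts on granule cell synapses, stood at 164 and 125 CPM in PELP1 FBKO against 79.6 and 107 CPM in FLOXED, a log2 fold change of 0.63 (SE 0.190, edgeR adjusted p = 0.173). Mef2c, a transcription factor of excitatory neurons, had 0.56 (SE 0.175, edgeR adjusted p = 0.187). In these 3 genes the genotypes did not overlap. Sema5a (10809 bases) and Mef2c (6277 bases) were lowest in FLOXED 1, where long transcripts were low, and are given without offsets.

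Genes of newborn and immature granule cells were on the higher side in PELP1 FBKO, although Neurod1 and Sox11 overlapped between the genotypes. Of 8 such genes 6 were tested, all with a log2 fold change above 0, as had 50% of all tested genes. The edgeR threshold was passed by 0. At an unadjusted edgeR p under 0.05, 3 were higher, where 10.1% of all tested genes were. Dcx, the doublecortin gene of migrating young neurons, stood at 18.3 and 24.4 CPM in PELP1 FBKO against 12.1 and 14.5 CPM in FLOXED, a log2 fold change of 0.68 (SE 0.199, edgeR adjusted p = 0.167). Igfbpl1, expressed in young neurons, stood at 3.13 and 7.49 CPM in PELP1 FBKO against 2.62 and 1.43 CPM in FLOXED (edgeR adjusted p = 0.212). Eomes, which marks intermediate progenitors, was at 0.861 and 4.36 CPM in PELP1 FBKO against 0.171 and 0.231 CPM in FLOXED, where it rested on 3 and 5 reads (edgeR adjusted p = 0.117). These 3 were higher in PELP1 FBKO 2 than in PELP1 FBKO 1. Prox1, Dsp and Tdo2 were instead higher in PELP1 FBKO 1. So was Neurod1, at 30.0 CPM in PELP1 FBKO 1 and 20.9 CPM in PELP1 FBKO 2. In mean log2 CPM centred per gene, the immature granule cell list stood at 0.13 and 0.74 in PELP1 FBKO 1 and 2. The choroid and ependymal list stood at -0.26 and 0.54 there, and the meningeal list at 0.09 and 0.64. By this mean all 3 lists were highest in PELP1 FBKO 2. The summed level of the choroid and ependymal list was instead highest in FLOXED 1. It was 69.4 and 95.1 CPM in PELP1 FBKO, against 357 and 108 CPM in FLOXED 1 and 2. Most of the FLOXED 1 sum was Ttr, the transthyretin gene, at 21.4 and 33.9 CPM in PELP1 FBKO against 324 and 67.5 CPM in FLOXED. Of the 6 tested genes of that list, 4 had a log2 fold change above 0 and 2 below. The part of such tissue in these values was not tested.

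Genes that act with Dsp and Tdo2 in other tissues went both ways, and 0 of 5 desmosome genes and 0 of 2 kynurenine genes tested passed the edgeR threshold. Among desmosome genes, Pkp2 (plakophilin 2) was at 41.3 and 39.8 CPM in PELP1 FBKO against 56.0 and 49.4 CPM in FLOXED, a log2 fold change of -0.38 (edgeR adjusted p = 0.246), the opposite side from Dsp. Jup (plakoglobin) had 0.05 (edgeR adjusted p = 0.922), Pkp4 0.12 (edgeR adjusted p = 0.729), Dsg2 0.47 (edgeR adjusted p = 0.361) and Dsc2, at up to 1.03 CPM, 0.36 (edgeR adjusted p = 0.780). The desmosomal cadherin gene Dsg1a was listed at 0 reads throughout, so that its level could be as high as 0.171 CPM in FLOXED 1 (3 reads, for counting error only). In the kynurenine pathway, Afmid, which acts after Tdo2, had a log2 fold change of 0.50 (edgeR adjusted p = 0.424) and Ido2, which acts at the same step, had -0.28 (edgeR adjusted p = 0.749). Ido1, Kmo, Kynu and Haao had too few reads to be tested.

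Markers of other cells in the dissected tissue differed between the same libraries, and their part in the values of the 9 genes was not tested. The counts below stand beside 25.4% of all tested genes higher and 23% lower without overlap. Of 7 CA1 pyramidal cell markers all were lower without overlap, with a median log2 fold change of -0.69, and their summed level was 648 to 759 CPM in PELP1 FBKO against 934 to 1055 CPM in FLOXED. Fibcd1, a CA1 marker, stood at 150 and 129 CPM in PELP1 FBKO against 232 and 206 CPM in FLOXED (edgeR adjusted p = 0.0998). Of 10 interneuron markers 7 were higher without overlap, and their sum was 1398 to 1457 CPM in PELP1 FBKO against 1066 to 1120 CPM in FLOXED. Oligodendrocyte markers summed to 5602 to 5984 CPM in PELP1 FBKO against 2806 to 3571 CPM in FLOXED, with 6 of 7 higher without overlap. The 7 astrocyte markers summed to 4754 to 5255 CPM in PELP1 FBKO against 2687 to 3873 CPM in FLOXED, with 5 higher without overlap. Aqp4 and Aldh1l1 overlapped. Most of each sum was Slc1a2, a transcript of 11595 bases, at 3386 and 2722 CPM in PELP1 FBKO against 1482 and 2430 CPM in FLOXED 1 and 2. Thalamic and habenular genes, markers of adjoining tissue, summed to 69.0 to 80.3 CPM in PELP1 FBKO against 52.0 to 59.0 CPM in FLOXED. Of these 7, 6 were tested and 4 were higher without overlap. In the pan-neuronal list, 1 of 6 tested genes was higher and 1 lower without overlap. The 9 marker genes themselves summed to 646 and 514 CPM in PELP1 FBKO against 494 and 481 CPM in FLOXED.

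Neighbouring fields of the hippocampus that contact granule cells showed no common direction. Of 9 markers of hilar mossy cells, 3 were higher and 2 lower without overlap, near the 25.4% and 23% of all tested genes. Calb2, the calretinin gene, which young granule cells and interneurons also make, stood at 70.0 and 108 CPM in PELP1 FBKO against 62.4 and 41.8 CPM in FLOXED (log2 fold change 0.77, edgeR adjusted p = 0.195). Of 9 CA3 and CA2 markers, 2 were higher and 1 lower without overlap, not above those shares. Their summed level was 312 to 400 CPM in PELP1 FBKO against 332 to 366 CPM in FLOXED.

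**Figure D5:**
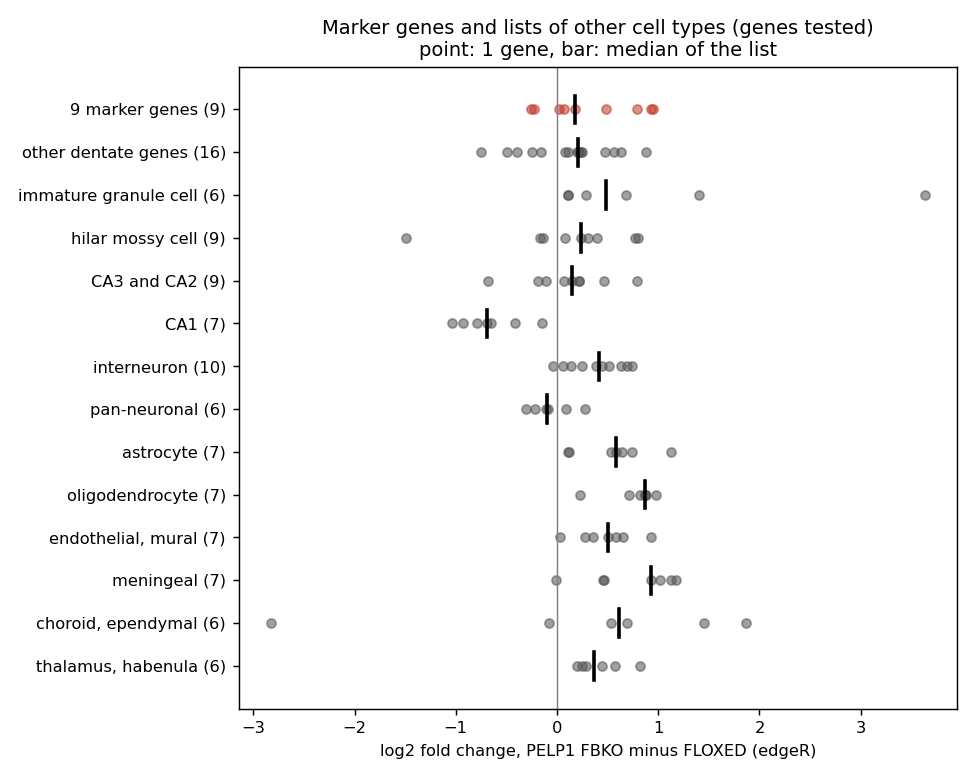
Log2 fold changes (horizontal axis, PELP1 FBKO minus FLOXED) of the 9 marker genes (red) and of the tested genes in lists of other dentate genes, hippocampal fields and cell types (grey), with the number of genes in brackets and a bar at each median. The CA1 list lies below 0 throughout (median -0.69), while the 9 marker genes span -0.26 to 0.95.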

How the data were processed

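The labels put 2 libraries in each genotype. Per gene symbol, the authors deposited counts of reads without normalization, to judge by the whole numbers and unequal totals. Tools in the submitters' processing notes are CASAVA 1.8.2, TopHat2 2.0.8b and HTSeq, with the build mm9, while the series text names a human build. HTSeq's strand setting and the annotation are not given in the sources used here, so reads of Prox1 and of the RefSeq gene Prox1os, which overlaps it, could not be told apart. No source states that the libraries are from different animals. The p-values thus reflect sample-to-sample spread alone, and that spread may be technical. Replicates differed beyond sampling noise (chi-square per degree of freedom 17.4 in PELP1 FBKO and 23.3 in FLOXED).

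Counts were tested with edgeR 4.0.16 in R 4.3.3 (TMM, filterByExpr, quasi-likelihood F test, Benjamini-Hochberg over 14978 genes, threshold 0.05). Standard errors came from the F statistic. HTSeq's summary rows were left out. No feature was assigned to between 14.7% and 15.7% of uniquely placed reads. Alternatives were DESeq2 1.42.0, limma-voom (limma 3.58.1), edgeR's exact test, other scalings and filters, a replicate block and leaving out each library. Offsets for length and GC content were chosen after seeing the data. Code was tested on simulated data. Members and lists were chosen with earlier results of these data known. Genes named are the members, Pelp1, up to 3 genes per list by p (all tested genes in the lists of partners) and the 5 most like Prox1. Not every gene so taken is reported.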

Additional observations from a re-analysis of the deposited data

How the results depend on the processing

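The number of genes past the threshold depended strongly on the setting, and so did that of the marker genes. Over all genes it was 0 in the main edgeR test and with limma-voom, 449 with DESeq2, 759 with edgeR's exact test, 86 with robust fitting, 17 with DESeq2-type size factors, 23 with library size only, 359 without a count filter, 43 when each library had to have 50 reads and 408 with offsets for length and GC content. Leaving out 1 library gave between 0 (without FLOXED 1) and 598 (without PELP1 FBKO 2). Of the 9 marker genes, 2 (Prox1 and Dsp, both higher) were called by DESeq2, by the exact test (3.75% of genes called higher) and without a count filter (1.51%), and 1 (Dsp) with the offsets (1.84%). Leaving out 1 library gave between 0 and 3, the 3 being Prox1, Dsp and Tdo2 without PELP1 FBKO 2 (1.79%). The log2 fold changes of Prox1, Dsp, Tdo2, Dock10, C1ql2 and Trpc6 kept their sign in all 14 alternatives. Calb1 turned to -0.00497 and Lct to -0.11 with the offsets. Leaving out 1 library gave C1ql2 between -0.38 and -0.08, C1ql3 between -0.036 and 0.35, Calb1 between -0.10 and 0.20, and Lct between -0.16 and 0.17. The cause of these changes was not tested.

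With the replicate number of the titles as a block, 566 genes and 2 marker genes (Prox1 and Dsp, 2.58% of genes being called higher) passed. The labels do not say that a number marks a shared animal or batch. The deviations of same-numbered libraries correlated at -0.118 across genes. With 2 libraries per genotype, this value cannot tell whether same-numbered libraries shared a batch. Tdo2, at 71 to 200 reads, had the widest interval of the 9. The difference of Trpc6 did not pass the threshold with 2 libraries per genotype. Its SE was 0.154 at 340 to 421 reads, close to the 0.153 of Calb1 at 3538 to 4779 reads. The smallest difference that could have been detected was not computed.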
